A study of Mus musculus with 16 samples.

Results

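The genes described here are 10 genes of antibody-secreting cells, gathered around immunoglobulin A: Igha, Jchain, Ighm, Mzb1, Xbp1, Pou2af1, Prdm1, Irf4, Sdc1 and Derl3. Every probe on the array whose annotation names one of them and no other gene was taken, which gave 29 probes for the 10 genes, out of 45101 probes and 18194 genes with a probe of their own. Each probe stands for a group of short oligonucleotides designed to one transcript. The genes were chosen by measured values of these arrays, around the rise of Igha and Jchain between 4 and 12 weeks of age, so the values that compare the ages are given below as a description, and counts over them are not a test of these genes. The comparison of drug-treated with vehicle-treated cochleae at 12 weeks did not choose them and was tested.

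The study asked whether reagents that act on epigenetic modification slow hearing loss, and which transcripts of the cochlea change with them. RNA came from whole left cochleae of male mice of the inbred strain DBA/2J, which loses hearing early, with 1 cochlea of 1 mouse on each of 16 arrays. The group at 4 weeks held 5 mice taken before any injection. The control group held 5 mice aged 12 weeks and given the vehicle, 0.1 M sodium bicarbonate, under the skin once a day for 8 weeks. The M+V group held 6 mice of that same age given L-methionine (MET, 500 mg/kg), the precursor of the methyl donor S-adenosylmethionine, and valproic acid (VPA, 300 mg/kg), an inhibitor of histone deacetylases, in that vehicle on the same schedule. Control against 4 weeks therefore holds both age and injections, which cannot be told apart.

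B cells that meet antigen can become plasma cells, which secrete antibody in bulk. Igha encodes the constant part of the alpha heavy chain, and Jchain encodes the joining chain that links immunoglobulin A or M units and lets them be carried across a mucosal epithelium. Irf4 and Prdm1 are transcription factors of plasma cell differentiation, Xbp1 enlarges the secretory apparatus, and Mzb1 and Derl3 act in the endoplasmic reticulum. Plasma cells that make immunoglobulin A are best known from the gut and the airways and also lodge in bone marrow, while the bone around the cochlea contains marrow in which B cells and red cells form.

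Some sequences serve to show which letters lie before the start of these genes. RefSeq promoter windows of 250 bases before to 50 bases after the gene start (GRCm38.p6) were taken for 7 of the 10 genes, namely Jchain, Xbp1, Pou2af1, Prdm1, Irf4, Sdc1 and Derl3. Windows of Igha, Ighm and Mzb1 were not in this set. Jchain is shown because it is the only one of these 7 that was higher in every cochlea at 12 weeks than in any at 4 weeks. Pou2af1 and Derl3 are shown because each holds a motif of the unfolded protein response, the programme in which Xbp1 works. The windows lie at chr5:88527848-88528147 on the minus strand for Jchain, at chr9:51213440-51213739 on the plus strand for Pou2af1 and at chr10:75893148-75893447 on the plus strand for Derl3. They are printed 5′ to 3′ along each gene, and the capitals mark the motif.
Jchain: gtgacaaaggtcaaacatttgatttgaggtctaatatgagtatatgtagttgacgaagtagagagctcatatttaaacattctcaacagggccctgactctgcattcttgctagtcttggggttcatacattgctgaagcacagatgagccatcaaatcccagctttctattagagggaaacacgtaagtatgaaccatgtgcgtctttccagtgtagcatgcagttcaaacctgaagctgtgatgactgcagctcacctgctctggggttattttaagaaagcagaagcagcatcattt
Pou2af1: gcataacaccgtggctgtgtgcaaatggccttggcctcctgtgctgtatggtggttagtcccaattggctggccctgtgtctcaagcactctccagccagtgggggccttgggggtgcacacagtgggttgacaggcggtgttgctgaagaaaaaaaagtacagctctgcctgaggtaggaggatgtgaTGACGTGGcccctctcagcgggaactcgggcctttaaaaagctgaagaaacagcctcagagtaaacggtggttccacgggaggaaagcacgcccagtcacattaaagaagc
Derl3: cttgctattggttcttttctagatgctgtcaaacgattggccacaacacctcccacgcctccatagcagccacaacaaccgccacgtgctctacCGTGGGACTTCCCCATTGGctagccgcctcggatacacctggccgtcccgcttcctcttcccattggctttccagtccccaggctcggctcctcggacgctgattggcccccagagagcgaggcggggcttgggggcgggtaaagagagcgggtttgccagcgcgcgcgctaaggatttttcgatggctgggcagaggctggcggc
The capitals in Pou2af1 are the element TGACGTGG at positions -61 to -54 from the start, and 0.676% of 32851 promoter windows held that element on either strand. The capitals in Derl3 are the endoplasmic reticulum stress element, CCAAT and CCACG with 9 bases of any kind between them, read on the opposite strand at positions -156 to -138, and 0.119% of windows held it. Both strands were also searched for the octamer ATGCAAAT, the site of the factors that Pou2af1 assists, for GGAA and GAAA with 2 bases of any kind between them, a composite site of Irf4 with an Ets factor, and for AGTGAAAG, a site of Prdm1. None of these 3 was found in any of the 7 windows, and 1.74%, 2.72% and 1.32% of all windows held them. None of the motifs searched overlapped another in these windows. A match describes the letters and not a site in use.

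Values are the MAS5 signals of the authors on the log2 scale, quantile-normalized so that the median was 6.90 in every array. A level cannot be set against the level of another probe, and in whole tissue a larger share of a cell type cannot be told apart from more RNA in each cell. The cochlear transcripts Coch, Otos and Otor were high in every array (11.61 at the lowest, for Otor in M+V replicate 1). The bacterial hybridisation control bioB parted the arrays. It was at 9.02 to 9.74 in replicates 1 and 2 of M+V, in replicate 1 of control and in all 5 arrays at 4 weeks, and at 5.98 to 6.36 in the other 8. Comparisons of the ages therefore hold much of this split as well. The adjusted p values given for them below make no allowance for it. M+V replicate 1 stood apart from the other arrays, most of all in blood-forming cells. Averaged over 11 cochlear genes, relative to the mean of all arrays, it was lowest, at -0.535 against -0.194 to 0.417. Averages over 14 neutrophil and 12 macrophage genes were highest in it, at 0.69 and 0.477. All 6 tested erythroid genes were lowest in it, with the membrane anion exchanger Slc4a1 at 5.22 against 12.45 to 13.54 in the other arrays, and so were 8 of 10 precursor B cell genes (Vpreb1 at 4.52 against 9.26 to 11.02) and 10 of 12 mature B cell genes. For several results that rest on M+V replicate 1 or 4, values without them are given as well.

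Igha was low at 4 weeks and high at 12 weeks in every cochlea. On its probe with the highest mean, 1421653_a_at, the 5 cochleae at 4 weeks had 7.65, 9.44, 7.36, 8.35 and 8.32. The 5 control cochleae had 13.44, 11.96, 11.77, 13.38 and 13.53, and the 6 M+V-treated cochleae ran from 12.18 through a median of 13.37 to 14.09. The lowest cochlea at 12 weeks was thus more than 2 log2 units above the highest at 4 weeks, and control replicates 2 and 3 and M+V replicate 3 were the low ones of their groups. The other probes gave the same picture. Probe 1425763_x_at averaged 8.04 ± 0.61 (SD, n = 5) at 4 weeks, 12.32 ± 0.95 (SD, n = 5) in control and 12.82 ± 0.65 (SD, n = 6) in M+V. Probe 1429381_x_at averaged 7.82 ± 0.47, 11.76 ± 0.81 and 12.18 ± 0.60 in the same order. The 3 probes differed between control and 4 weeks by 4.59, 4.28 and 3.93 on the log2 scale, or 24.1-, 19.4- and 15.2-fold. All 3 probes passed the filter on low values in each group, also at 4 weeks, so none entered through its high group alone.

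Jchain, the partner of Igha in secreted polymers, has 1 probe. It had 8.60, 8.82, 8.10, 9.69 and 8.31 at 4 weeks. In control it had 11.49, 10.35, 10.40, 11.37 and 11.29, and in M+V it ran from 9.75 through a median of 11.12 to 12.32. All 11 cochleae at 12 weeks were above all 5 at 4 weeks, though M+V replicate 3, at 9.75, lay close to replicate 4 of the 4-week group, at 9.69. The mean was 4.84-fold higher in control and 5.61-fold higher in M+V than at 4 weeks. Among high-bioB arrays, Igha on 1421653_a_at differed from 4 weeks by 5.215 in control replicate 1 and 5.496 in M+V replicates 1 and 2. Jchain differed there by 2.785 and 2.851. Over all tested probes, 0.514% were above in all 11 cochleae at 12 weeks, and of the 17 tested probes of the 10 genes the 4 probes of Igha and Jchain were. This contrast chose the genes, so nothing is read from that count.

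**Figure D1:**
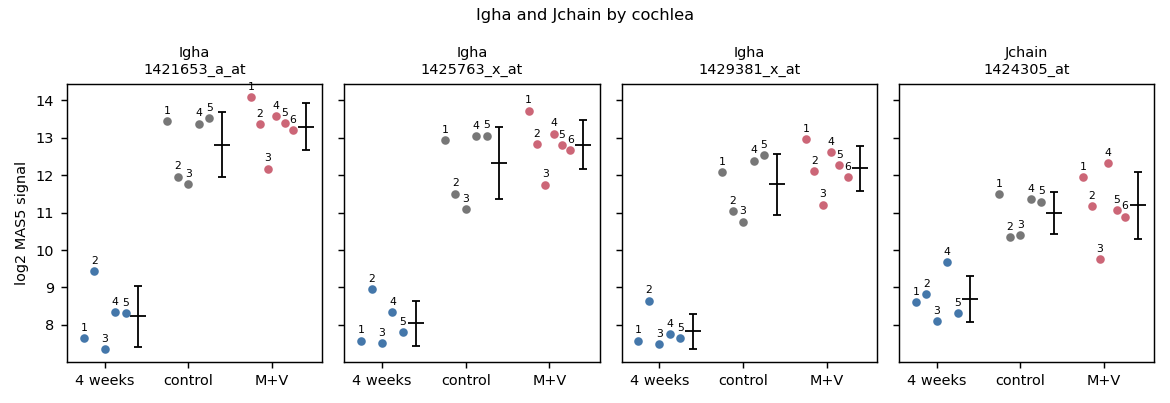
The log2 MAS5 signal of the 3 Igha probes and the Jchain probe in each cochlea, with replicate numbers beside the points and, to the right of each group, the mean with its SD. Every cochlea at 12 weeks lies above every cochlea at 4 weeks on each probe, and the control and M+V groups overlap.

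Within the 12-week groups, cochleae with more Igha also had more Jchain. Over the 11 cochleae, with the mean of each group removed, Pearson's r was 0.867 (permutation p = 0.00022) and Spearman's rho was 0.864 (permutation p = 0.00103). This was the only relation between members that was tested, so no adjustment was made. Without control replicate 3 and M+V replicate 3, the cochleae farthest from the median of Igha, r was 0.769 (permutation p = 0.0138, n = 9). Among the 8 cochleae with low bioB r was 0.834 (permutation p = 0.00777), and in M+V alone it was 0.904 (permutation p = 0.0191, n = 6). The cochleae with high bioB at 12 weeks numbered 3, too few for a value.

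Other probes followed Igha as closely. By Pearson's r over the same 11 cochleae, Jchain came 17th of 18851 tested probes with 1 gene symbol, behind the other Igha probes (0.993 and 0.981). The 10 genes most like Igha were Crcp (0.915), Hacd1 (0.906), Gtf2e2, Cenps, Exosc8, Gpr160, Rrp1b, Ankrd49, Mrpl1 and Rps18 (0.872). None of them is a member, and with 11 cochleae drawn from one set of arrays these values describe the arrays only. For the other members r ran from -0.441 to 0.657 over the 11 Ighm probes, highest on 1425385_a_at, a probe below the filter. It was 0.443 for Prdm1, 0.396 for Derl3, 0.227 for Mzb1 and 0.064 for Pou2af1. It ran from 0.11 to 0.437 over the Xbp1 probes and from 0.244 to 0.358 over those of Sdc1, and it was -0.19 and -0.07 on the Irf4 probes.

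Ighm, which encodes the constant part of the mu heavy chain of naive B cells and of immunoglobulin M, has 11 probes, and they fell into 3 kinds. The 2 with the highest means, 1427351_s_at and 1427329_a_at, were level between the ages. Probe 1427351_s_at had 12.48, 12.33, 12.42, 12.88 and 11.96 at 4 weeks, 12.01, 12.64, 12.66, 12.63 and 11.96 in control, and 11.56 to 12.57 with a median of 12.16 in M+V. Probe 1427329_a_at had 11.59, 11.90, 11.96, 12.19 and 11.65 at 4 weeks, 11.36, 11.98, 12.06, 12.04 and 11.37 in control, and 10.20 to 11.79 with a median of 11.37 in M+V. M+V replicates 1, 2 and 3 were the lowest on it, below every cochlea of the other groups. Control differed from 4 weeks by -0.036 and -0.098 on the log2 scale on these 2 probes, less than the SD within either group.

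A second kind, 1427870_x_at, 1425247_a_at, 1427756_x_at and 1425324_x_at, had higher means at 12 weeks, by 0.93, 1.21, 1.94 and 2.56 in control on the log2 scale (SE 0.70 to 1.16). The groups overlapped on all 4. The first of them had 8.17, 7.62, 7.87, 8.40 and 8.03 at 4 weeks, 9.73, 9.41, 7.83, 8.66 and 9.12 in control, and 8.14 to 13.13 with a median of 8.64 in M+V. Control replicate 3 was as low as the cochleae at 4 weeks. M+V replicate 4 was far above all others on all 4 probes, at 13.13, 12.84, 12.38 and 12.06, where the next M+V cochlea had 9.16, 8.45, 7.80 and 7.61. With that cochlea the M+V means were above control by 0.40, 0.50, 0.62 and 0.77, and without it the differences were -0.36, -0.40, -0.32 and -0.11.

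M+V replicate 4 was also the cochlea with the highest signal on 14 of the 29 other probes that name a single immunoglobulin gene, 12 of them of the kappa light chain locus, where the next, control replicate 4, was highest on 4. Only 4 of those 29 probes passed the filter, and the 2 of them that limma called in a comparison of the ages are given here, named after their values were seen. Igkv8-30, a kappa variable gene, had 8.98, 8.65, 8.77, 9.22 and 8.69 at 4 weeks, 9.90, 10.04, 9.80, 10.45 and 10.70 in control, and 9.18 to 11.69 in M+V, with the highest value in replicate 4. It differed from 4 weeks by 1.32 in control (adjusted p = 0.085 by limma) and by 1.41 in M+V (SE 0.36, adjusted p = 0.0257 by limma). Ighv14-2, a heavy chain variable gene, had 7.97, 8.20, 8.35, 8.39 and 7.92 at 4 weeks, 8.92, 9.27, 9.61, 9.62 and 9.02 in control, and 7.41 to 8.996 in M+V, where replicate 3 was lowest. Every control cochlea was above every one at 4 weeks, by 1.12 in the mean (SE 0.25, adjusted p = 0.0244 by limma), while M+V differed from control by -0.82 (SE 0.24, adjusted p = 0.381 by limma) and overlapped with both. For Igkv8-30 and Ighv14-2 the SE came from the fit of all probes and the adjusted p from the fit of the probes that passed the filter. On the 2 Ighm probes of the first kind, replicate 4 was not apart from its group, at 12.57 and 11.70. The annotation used does not say which part of the Ighm transcript each probe reads, and probes whose names end in x_at or s_at may match several related transcripts, so the mu chain and other immunoglobulin transcripts cannot be told apart on them. The remaining 5 Ighm probes stayed below 7 in all 16 arrays and were below the filter.

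**Figure D2:**
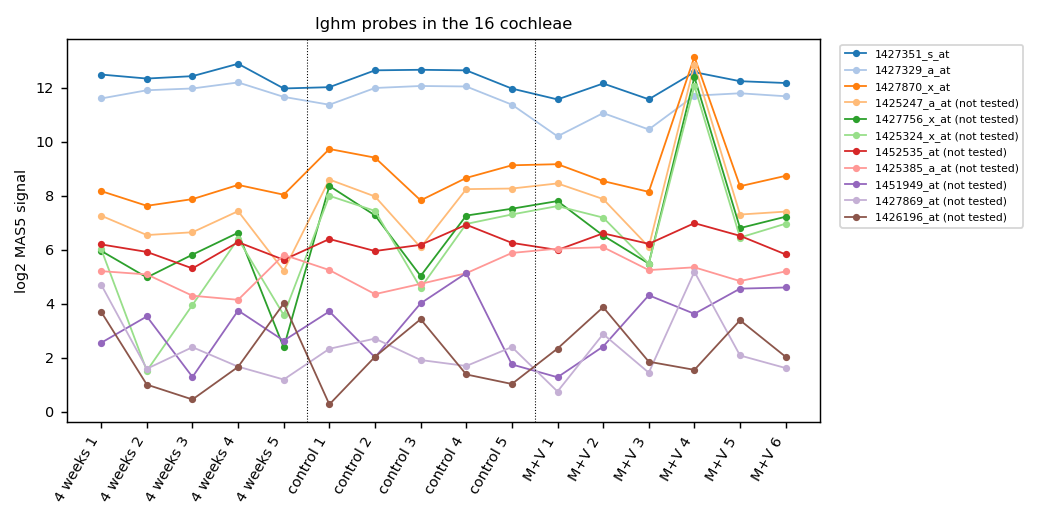
The log2 MAS5 signal of the 11 Ighm probes in the 16 cochleae, with dotted lines between the 4-week, control and M+V groups. A set of 4 probes peaks in M+V replicate 4, at 12.06 to 13.13, while the 2 topmost lines in the other cochleae show no such peak.

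Mzb1, Pou2af1 and Irf4, which B cells carry as well as plasma cells, were not higher at 12 weeks. Mzb1, a chaperone that helps assemble immunoglobulin M, had 10.32, 10.33, 10.57, 10.52 and 10.21 at 4 weeks. It had 9.84, 9.97, 10.12, 10.77 and 10.19 in control, and 9.35 to 10.69 with a median of 10.01 in M+V. The groups overlapped, with M+V replicates 1, 2 and 3 the lowest. Pou2af1, the B cell coactivator of octamer-binding factors, had 10.74, 10.96, 11.12, 11.22 and 10.67 at 4 weeks and 10.26, 10.61, 10.71, 11.17 and 10.40 in control. In M+V it ran from 9.26 through a median of 9.95 to 10.87, and replicates 1, 2 and 3 were below every other cochlea of the study.

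Irf4 on probe 1421173_at had 8.22, 8.32, 8.61, 8.87 and 8.24 at 4 weeks and 8.23, 8.11, 8.31, 8.47 and 7.56 in control. In M+V it ran from 5.95 through a median of 7.37 to 8.17, so that all 6 M+V-treated cochleae were below all 5 at 4 weeks while M+V and control overlapped. This probe passed the filter at 4 weeks and in control but not in M+V. The second Irf4 probe, 1421174_at, stayed between 4.11 and 6.05 and was below the filter. Against 4 weeks the log2 differences of Mzb1, Pou2af1 and Irf4 were -0.21, -0.31 and -0.32 in control and -0.42, -0.97 and -1.27 in M+V. With the bioB level as a block they were larger in control, at -0.67, -0.88 and -1.15, a fit that takes the block from the 12-week groups alone. In those groups bioB was high in control replicate 1 and in M+V replicates 1 and 2. These M+V replicates were among the lowest for these genes. Control replicate 1 was the lowest of its group for Mzb1 and Pou2af1, but for Irf4 it was at the median of control, 8.23. Control replicate 1 by itself differed from the mean at 4 weeks by -0.545 for Mzb1, -0.681 for Pou2af1 and -0.225 for Irf4.

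Xbp1, the transcription factor of the secretory programme, differed little on any of its 4 probes. Probe 1437223_s_at lay between 13.14 and 13.49 in all 16 cochleae, and the mean of control minus 4 weeks was -0.054, with -0.084, 0.049 and -0.33 on the others. Derl3, which helps move misfolded proteins out of the endoplasmic reticulum, had 7.54, 8.01, 7.63, 7.36 and 7.36 at 4 weeks, 7.81, 7.70, 7.61, 7.87 and 7.77 in control and 7.68 to 8.12 with a median of 7.85 in M+V. Its means were 0.17 and 0.30 above 4 weeks on the log2 scale, with overlap between the groups.

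Prdm1 turned on 1 cochlea, and Sdc1 leaned largely on that same cochlea. Prdm1, the repressor that shuts off the B cell programme, had 6.75, 6.89, 6.77, 6.99 and 6.87 at 4 weeks and 7.47, 6.85, 7.05, 6.73 and 6.52 in control, below the filter. In M+V the median was 7.02, and replicate 1 had 9.48 where the next had 7.24. Sdc1 encodes syndecan-1, a proteoglycan used to sort plasma cells that many epithelia also carry. Its probe 1437279_x_at had 8.31, 8.56, 8.43, 8.86 and 8.59 at 4 weeks and 8.53, 8.37, 8.40, 8.41 and 7.92 in control, and in M+V it ran from 8.10 through a median of 8.54 to 10.70. The highest was again replicate 1, which also had 9.85 on 1415943_at, where the next had 8.28. On 1437279_x_at M+V replicate 2 came next, at 9.36, above every control and 4-week cochlea. Replicate 1 was the cochlea whose erythroid and B lineage genes were nearly absent or lowest, and whether this bears on Prdm1 and Sdc1 was not tested. Control differed from 4 weeks by 0.068 for Prdm1 and -0.22 for Sdc1, and with the bioB level as a block, which rests partly on replicate 1, by 0.96 and 0.71.

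**Figure D3:**
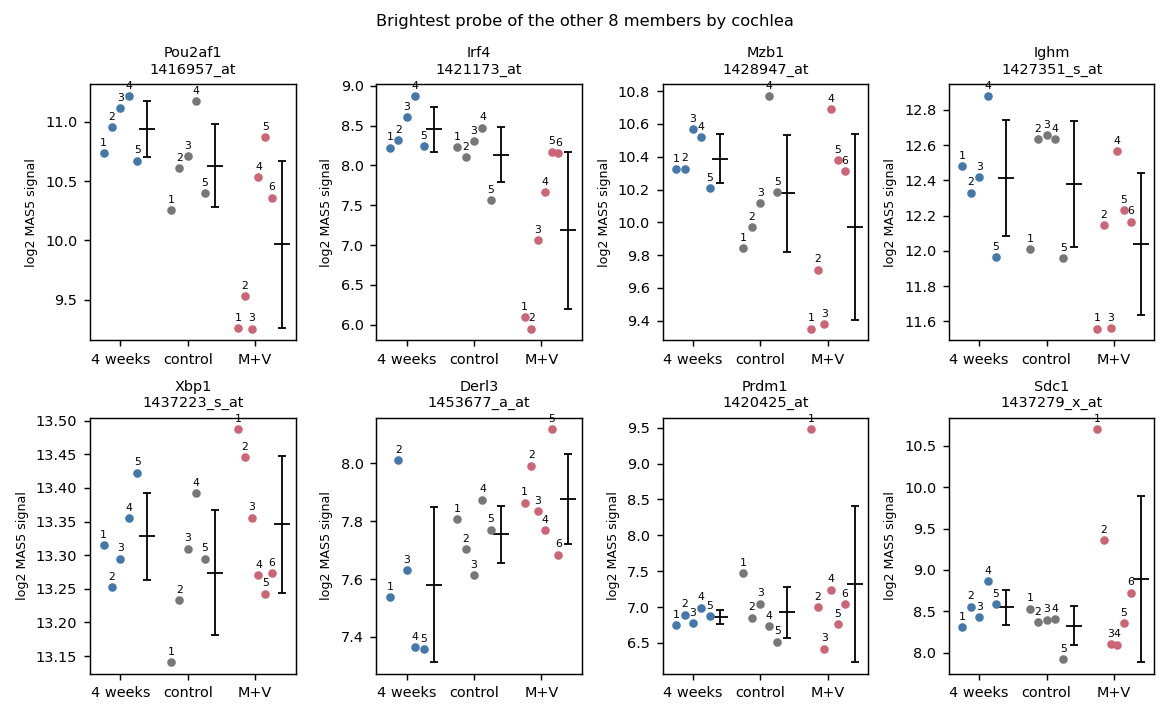
The log2 MAS5 signal of the probe with the highest mean for each of the other 8 genes, by cochlea, with replicate numbers beside the points and the mean with its SD to the right of each group. Each panel has its own scale; M+V replicates 1, 2 and 3 are low for Pou2af1 and Mzb1, and M+V replicate 1 is high for Prdm1 (9.48) and Sdc1 (10.70).

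Over all 29 probes, the ages differed on few. Between 4 weeks and control 14 probes had a mean above 0 and 15 below, with a median of -0.036 against -0.001 over all probes. As a count over the table and not as a test of these genes, at an adjusted p under 0.05 from limma the 4 probes of Igha and Jchain were the members called higher in control, out of 17 tested, beside 0.369% of all tested probes, and 0 were called lower, beside 1.01%. Between 4 weeks and M+V the same 4 were called higher, beside 2.08% of all tested probes, and Pou2af1 and Irf4 lower, beside 3.2%. The comparisons share the 5 arrays at 4 weeks, and they chose the genes, so nothing is read from these counts.

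**Figure D4:**
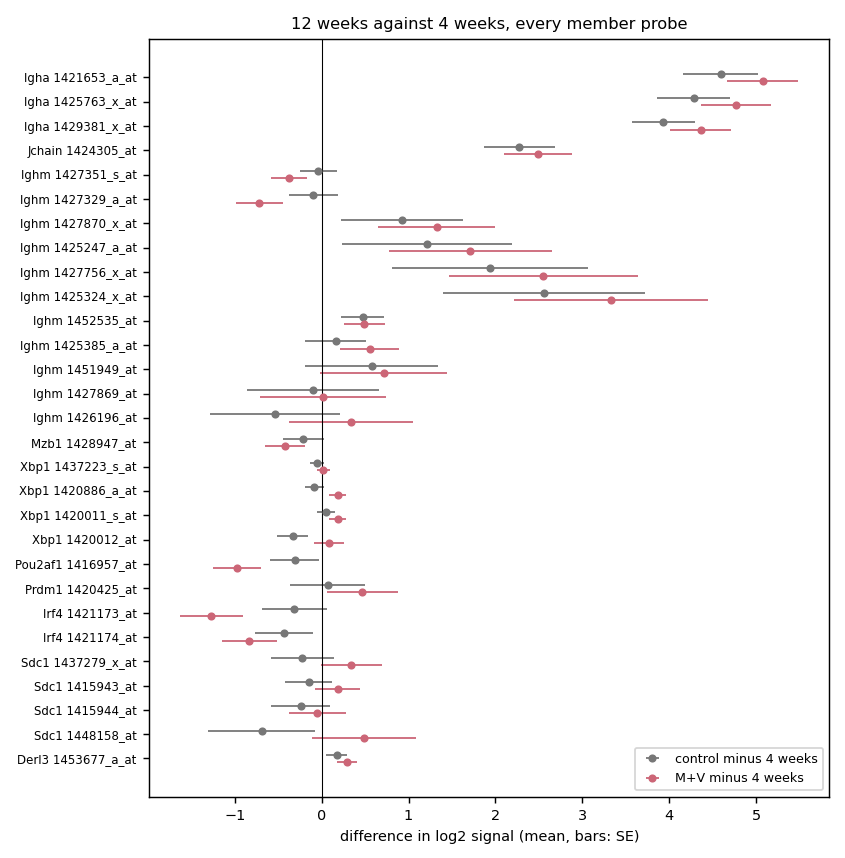
Difference in mean log2 signal from 4 weeks for each of the 29 probes, for control (grey) and M+V (red), with bars for the SE of the fit. The Igha and Jchain probes lie between 2.28 and 5.07, 4 Ighm probes have positive means with wide bars, and Irf4 and Pou2af1 lie below 0, further in M+V.

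Whether M+V treatment changed these transcripts at 12 weeks was tested with limma over all arrays, and no probe of the 10 genes passed. At an adjusted p under 0.05, 0 of the 17 tested probes were called in either direction, beside 0% of all 21391 tested probes, where the lowest adjusted p was 0.327. At an unadjusted p under 0.05 from limma there were 5 probes, 2 of Xbp1 above control and 1 each of Ighm, Pou2af1 and Irf4 below. By limma, 4.67% of all tested probes were higher and 5.13% lower at that threshold. The test that the study's methods name gave 1 of 17 at that threshold and 0 after adjustment. Its share over all probes at that threshold was not counted. At a fold above 1.5 and an unadjusted p under 0.05, the cutoffs of the study, the Ighm probe 1427329_a_at, Pou2af1 and Irf4 were lower with the p of limma, 3 of 17 beside 1.34% of all. With the p of the test that the methods name, 0 of 17 were, beside 0.781% of all. The Irf4 probe did not pass the filter in M+V, so it was tested through groups in which it was high, and among the 16 probes that passed in both groups compared the count with limma's p was 2. By gene, on the probe with the highest mean, 2 of 9 tested genes were lower at these cutoffs with limma's p, beside 0.987% of all. Without M+V replicate 1 the count was 1 of 9, beside 0.541%.

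Igha was 1.40-fold higher in M+V than in control, a log2 difference of 0.48 (SE 0.41, 95% interval -0.39 to 1.36, adjusted p = 0.719 by limma). It was 0.22 without control replicate 3, 0.27 without control replicate 2, 0.71 without M+V replicate 3 and 0.33 without M+V replicate 1. Its other probes gave 0.49 and 0.43. Jchain differed by 0.21 (SE 0.39, 95% interval -0.61 to 1.04, adjusted p = 0.883 by limma), and without M+V replicate 4 by -0.015. The groups overlapped on all 4 probes of Igha and Jchain, and the upper limits of all 4 intervals were above 1 log2 unit. Within the 8 cochleae of low bioB, Igha differed by 0.43 and Jchain by 0.16.

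The largest downward differences were in Irf4 and Pou2af1. Irf4 was 0.95 lower (log2 difference -0.95, SE 0.36, 95% interval -1.71 to -0.19, unadjusted p = 0.017, adjusted p = 0.458 by limma), and its adjusted p was 0.682 when all probes were fitted without the filter. Pou2af1 was 0.66 lower (log2 difference -0.66, SE 0.27, 95% interval -1.24 to -0.09, unadjusted p = 0.0263, adjusted p = 0.476 by limma). Without M+V replicate 1 the differences were -0.73 and -0.52. For Irf4 the difference was -0.35 among the 8 cochleae of low bioB and -2.20 among those of high bioB. The latter are control replicate 1 and M+V replicates 1 and 2, and these M+V replicates were also low in mature B cell genes, so the bioB level and the level of those genes cannot be told apart there. Mzb1 differed by -0.21 (SE 0.23), with an adjusted p of 0.787. The Ighm probes of the first kind differed by -0.34 and -0.62 (SE 0.20 and 0.27), with adjusted p values of 0.591 and 0.48 by limma. Without M+V replicate 1 these 2 probes differed by -0.244 and -0.429.

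The probes of Xbp1, Derl3, Prdm1 and Sdc1 had means above control, while Mzb1 did not. On the Xbp1 probe 1420886_a_at control had 12.44, 12.32, 12.75, 12.80 and 12.59, and M+V ran from 12.56 through a median of 12.89 to 13.07. On 1420012_at control had 7.68, 7.57, 7.62, 7.83 and 7.43, and M+V ran from 7.58 through a median of 7.98 to 8.56. The groups overlapped on both, with M+V replicates 1 and 2 the highest. Xbp1 differed by 0.072, 0.27, 0.14 and 0.42 on its 4 probes, the second with an SE of 0.10 and an adjusted p of 0.46 and the fourth with an SE of 0.17 and an adjusted p of 0.468 by limma. Derl3 differed by 0.12 (SE 0.11, adjusted p = 0.741). Prdm1 differed by 0.40 (SE 0.41) and without M+V replicate 1 by -0.032, and Sdc1 by 0.56 (SE 0.35) and without it by 0.20. The other Sdc1 probes differed by 0.33, 0.19 and 1.18, and without that replicate by 0.048, -0.058 and 0.99, the last on a probe below 5.5 in all arrays.

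**Figure D5:**
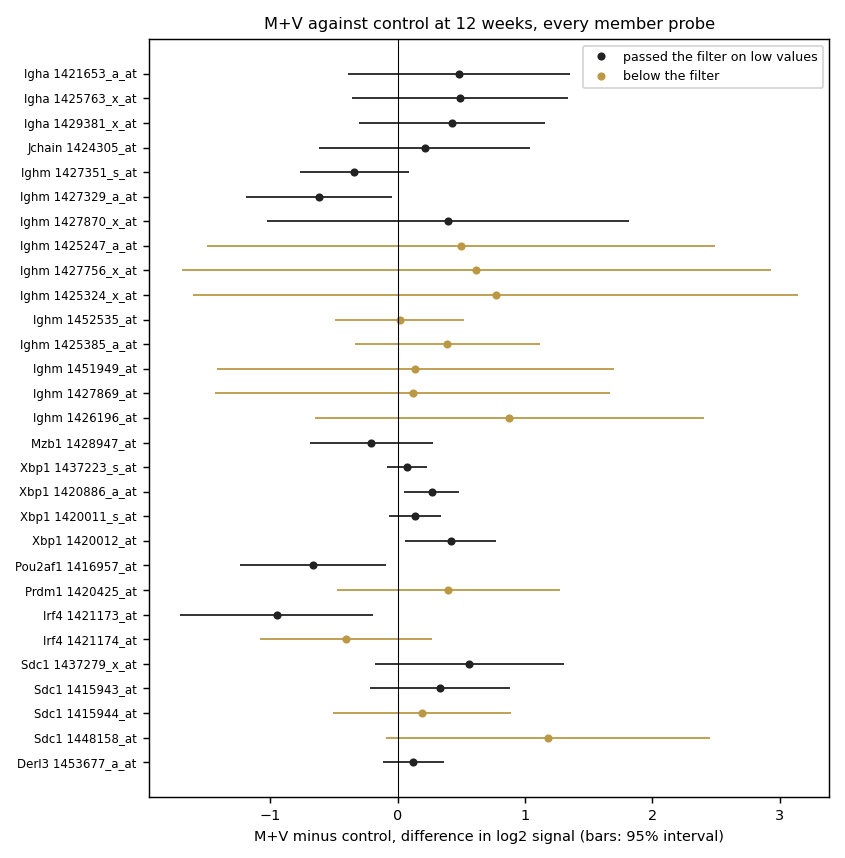
Difference in mean log2 signal between M+V and control for each of the 29 probes, with 95% intervals from limma, for probes that passed the filter on low values (black) and those below it (yellow). Points for Irf4, Pou2af1 and one Ighm probe have intervals wholly below 0 and 2 Xbp1 probes wholly above 0 before adjustment; no adjusted p was under 0.05.

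Other genes of the pathway were read from lists of the same programme. Among genes of plasma cell surface and survival, 0 of 8 tested were called in any comparison; their medians were 0.006 from 4 weeks to control and 0.037 between M+V and control, where all genes had 0.009 and 0.018. Tnfrsf17, the receptor by which plasma cells take up survival signals, stayed between 3.40 and 5.55 in all arrays, below the filter, so that this defining plasma cell marker gave no usable signal. Tnfrsf13b, a related receptor of B cells, lay between 8.77 and 10.21, and control differed from 4 weeks by 0.036 (SE 0.20, adjusted p = 0.964 by limma).

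Of the genes of homing, switching and transport of immunoglobulin A, 8 of 19 on the array were tested. Cxcl13, the chemokine that draws B cells, was the 1 gene called in both comparisons with 4 weeks, beside 0.402% of genes called higher in control and 2.52% in M+V. It had 5.76 to 6.66 at 4 weeks, 7.26 to 8.66 in control and 7.47 to 8.46 in M+V, with no overlap between 4 and 12 weeks. No array at 4 weeks reached the array median, so it was tested only through the groups in which it was high. Cxcl12, which holds plasma cells in marrow, differed by 0.32 in control (adjusted p = 0.196 by limma) and 0.37 in M+V (adjusted p = 0.0557 by limma), and Vcam1, an adhesion molecule, by 0.34 and 0.25. Pigr, the receptor that carries polymeric immunoglobulin A across epithelium, stayed at 3.19 to 6.72, below the filter. The list had 0 calls between M+V and control.

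The secretory machinery and unfolded protein response list had 47 tested genes. Between 4 weeks and control 0 were called and the median was -0.005, and between M+V and control 0 were called and the median was 0.071, with 32 of 47 above 0. Between 4 weeks and M+V 2 of 47 were called higher, beside 2.52% of all genes. They were Sdf2l1, a chaperone cofactor, by 0.55 (SE 0.14, adjusted p = 0.035 by limma) and Ern1, the sensor that splices Xbp1, by 0.33 (SE 0.09, adjusted p = 0.0399 by limma). The chaperone Hspa5 lay between 13.39 and 13.84 in all 16 cochleae. These genes work in all secreting cells, and all 47 on the array passed the filter.

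Genes of other cell types were measured on the same arrays. The mature B cell list had a median of -0.60 between M+V and control, against 0.018 over all genes, with 1 of 12 genes above 0. No gene of it was called by limma, and 6 were lower at the study's cutoffs with the p of limma, beside 0.987% of all genes. No count with the test that the methods name was made for this list. Without M+V replicate 1 the median was -0.47 and 1 of 12 was lower at those cutoffs, beside 0.541%. Cd22, an inhibitory receptor of B cells, differed by -0.74 (SE 0.25, adjusted p = 0.42 by limma). Ms4a1, the B cell surface protein CD20, had 8.97, 9.94 and 9.63 in M+V replicates 1, 2 and 3 and 10.49 to 10.94 in replicates 4 to 6, so it was low in the replicates in which Pou2af1 and Mzb1 were low. From 4 weeks to control the median of the list was -0.076 and 0 genes were called. From 4 weeks to M+V the median was -0.734. In that comparison 1 of 12 genes was called lower, beside 3.2% of all tested probes (Bach2, -1.03, adjusted p = 0.027 by limma). Averaged over the 12 genes and relative to the mean of all arrays, the list lay at -1.31, -0.52 and -0.69 in M+V replicates 1, 2 and 3. It lay at 0.048 to 0.20 in the other M+V cochleae, -0.15 to 0.62 in control and 0.050 to 0.47 at 4 weeks, and its part in the differences of Irf4, Pou2af1 and Mzb1 was not tested. The defining markers Cd79a and Pax5 were below the filter.

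The precursor B cell list had a median of -0.39 between M+V and control, and of -0.13 without M+V replicate 1. From 4 weeks to control its median was -0.39, with 1 gene of 10 called lower, beside 1.05% of all genes (Sox4, -0.41, adjusted p = 0.0468 by limma). From 4 weeks to M+V its median was -0.957, with 2 of 10 called lower, beside 3.2% of all tested probes. They were Il7r (-1.10, adjusted p = 0.00435 by limma) and Sox4 (-0.56, adjusted p = 0.00303 by limma). The erythroid list had a median of -1.39 between M+V and control and of -0.20 without M+V replicate 1, with 0 called in either case, and its mean per array was -5.16 in M+V replicate 1 and between -0.32 and 0.71 in the other 15 arrays. Among T and NK cell genes 0 of 5 were called between M+V and control. From 4 weeks to M+V 1 of 5 was called higher, beside 2.52% of all genes (Nkg7, 0.80, adjusted p = 0.0302 by limma). Of 14 neutrophil granule genes, 2 were called higher in control than at 4 weeks, beside 0.402% of all genes, namely the proteases Prtn3 (1.03, adjusted p = 0.00638 by limma) and Ctsg (0.87, adjusted p = 0.0461 by limma). In M+V 5 of the 14 were called higher than at 4 weeks, beside 2.52%, among them Prtn3 (1.29, adjusted p = 4.97e-04 by limma). Of 12 macrophage genes, 1, Cd5l, was called higher in each comparison with 4 weeks. It reached the array median in 2 of 5 arrays at 4 weeks and in all at 12 weeks, so it too was tested only through its high groups. In all of these lists 0 genes were called between M+V and control.

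Markers of secretory mucosal epithelium, the tissue in which cells making immunoglobulin A are best known, were measured as well. Of its 19 genes 13 were below the filter, and of the 6 tested 0 were called in any comparison. Bpifa1, a secreted protein of the airway and middle ear lining, lay between 14.21 and 15.12 in all 16 cochleae. Control differed from 4 weeks by -0.11 (SE 0.19, adjusted p = 0.865 by limma). Below the filter, Dmbt1 and Bpifb1, both secreted by mucosal glands and named after their values were seen, were high in a few control cochleae. They were not typical of the 13. Muc5b, Muc16, Scgb3a1, Scgb3a2, Foxj1, Krt5, Reg3g, Tff2 and Agr2 were highest in M+V replicate 2, with Reg3g at 11.51 and Scgb3a2 at 10.50. Muc5ac was highest in M+V replicate 1 and Scgb1a1 in replicate 1 of the 4-week group. Dmbt1 had 2.13 to 5.00 at 4 weeks, 7.78, 7.88, 11.07, 5.85 and 3.69 in control and 0 to 5.69 in M+V. In the fit without the filter it differed by 3.58 between control and 4 weeks (adjusted p = 0.366 by limma) and by -3.81 between M+V and control (adjusted p = 0.682 by limma). Bpifb1 had 5.5 to 6.71 at 4 weeks, 8.22, 8.77, 12.45, 6.67 and 5.85 in control and 2.85 to 6.59 in M+V, with differences of 2.29 (adjusted p = 0.536 by limma) and -3.29 (adjusted p = 0.682 by limma). For Dmbt1 and Bpifb1, control replicates 1, 2 and 3 were the high ones. For Igha, replicates 2 and 3 were the lowest of their group, and replicate 1, at 13.44, was not. A relation of Igha to these genes was not tested.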

How the data were processed

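An Affymetrix GeneChip for the mouse genome measured RNA of 16 whole cochleae. Per the labels and the methods, the authors extracted signals with GCOS and MAS5 (versions not stated) and quantile-normalized them. The deposited values are log2 signals: sorted values were the same in all 16 arrays (largest difference 0), and they ran from -3.31 to 15.4. Signals under 1 were set to 1 (0.869% of values). The array's annotation gave 34958 probes 1 gene symbol, 932 several and 9211 none, and 4 probes that name a member beside another gene were not used.

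The study kept probes with MAS5 present flags throughout some group. Here, in place of these flags, a probe entered when at least 1 group had it at or above the array median in all of its arrays (21391 probes, 17 of the 29; 11450 genes); probes below it were fitted with all 45037 that are no controls. limma 3.58.1 in R 4.3.3 fitted a mean per group over the 16 arrays, two-sided, with Benjamini-Hochberg adjustment over all probes in that fit. Intervals are at 95%. Permutation tests drew 1e+05 resamples. Every member probe is named. A gene of another list was read from its brightest probe, and up to 4 with the largest moderated t in a contrast could be named, with defining markers beside them chosen after their values were seen. The members and all lists were chosen with earlier results of these data known. Scripts were tested on simulated data. Alternatives were cyclic loess, log2(signal + 32), other filters, the methods' t-test, only the compared groups, array weights, blocks for replicate number and bioB level, either bioB side alone, the mean over a gene's probes, and leaving out arrays; the high bioB side for M+V against control, leaving out M+V replicates 1 and 4 together, the gene lists without M+V replicate 1, and the correlation with group means kept were chosen after seeing the data. The number of arrays limits precision. No probe sequences were used here.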

Additional observations from a re-analysis of the deposited data

Results flagged for a closer look

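Within each group, a cochlea was picked out when its gap to the nearest value was wide for the range of the group (Dixon's 95% limit), which happens by chance in about 1 group of 20. Of 87 groups of values, 10 gave such a cochlea, and 6 of the 10 were M+V replicate 1 or 4.

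M+V replicate 4 was high on 4 Ighm probes, at 13.13 on 1427870_x_at, 12.84 on 1425247_a_at, 12.38 on 1427756_x_at and 12.06 on 1425324_x_at. M+V replicate 1 was high for Prdm1, at 9.48, and for Sdc1 on 1415943_at, at 9.85. The other 4 were single values: Igha on 1429381_x_at in replicate 2 of the 4-week group was high at 8.65, with 7.76 the next. Ighm on 1425247_a_at in control replicate 3 was low at 6.09, with 7.97 the next. Irf4 on 1421174_at in replicate 3 of the 4-week group was low at 5.4, with 5.85 the next. Sdc1 on 1437279_x_at in control replicate 5 was low at 7.92, with 8.37 the next.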

How the results depend on the processing

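No probe of the 10 genes passed for M+V against control under the alternatives, including each array left out in turn (0 to 0 probes), with 1 exception: on the 3 high-bioB cochleae at 12 weeks 1 probe passed, Irf4 at -2.20, where the lone control cochlea was assumed to vary like the other groups, and nothing is read from it. Its difference ran from -2.20 to -0.35 over the alternatives, and array weights gave -0.37. The sign turned for Jchain without M+V replicate 4 (-0.015, with 0.499 the highest when 1 array was left out) and without replicates 1 and 4 (-0.26), for Prdm1 without M+V replicate 1 (-0.032, up to 0.579 without another array) and without both (-0.12), for Mzb1 with array weights (0.037), for Xbp1 among low-bioB cochleae (-0.022), and for Ighm as the mean over its probes (0.26). The cause was not tested, except that the last mean mixes the kinds of Ighm probe. As a description, since these contrasts chose the genes, leaving out 1 array left 4 to 4 member probes called from 4 weeks to control and 4 to 6 from 4 weeks to M+V (4 without any 1 of 11 arrays), where the block for bioB gave 8 and its high side alone 9.

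The replicate numbers were not used as pairs: same-numbered arrays had a median correlation of 0.0126 in 15 pairs, 6 of them over 0.1. With the replicate number as a block 0 probes were called for M+V against control, 4 for control and 6 for M+V against 4 weeks; Igha differed by 0.50 and Irf4 by -1.14 between M+V and control.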
